A study of Rattus norvegicus with 6 samples.

Results

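The subunits of TFIIH, the general transcription factor that holds the protein target of triptolide, were followed at the level of their messenger RNA in arthritic rat synovial tissue with and without the compound. The members were taken as every non-control array probe whose listed gene name is Ercc3, Ercc2, Gtf2h1, Gtf2h2, Gtf2h3, Gtf2h4, Gtf2h5, Cdk7, Ccnh or Mnat1. This gave 11 probes for 9 of the 10 genes, out of 41012 probes and 16343 named genes on the array, and no probe carried the name Gtf2h3. All 11 probes were well above background on all 6 arrays, so none was lost to the filter on dim probes.

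The study used synovial tissue from the hind ankle joints of male rats aged 8 weeks, all given Freund's complete adjuvant (0.1 ml daily by the intraperitoneal route for 18 days) to provoke adjuvant arthritis. The triptolide group (TP in the labels, 3 arrays) received triptolide at 0.4 mg/kg daily for 14 days, and the arthritis group (AA, 3 arrays) did not. The design text gives saline as the alternative to triptolide. Strain and the number of animals behind each RNA are not given in the sources used here, and no healthy group was analysed here, so values are relative to arthritic tissue. No label ties the 3 replicates of a group to different animals. The p-values therefore reflect spread between arrays, which may not be spread between animals.

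TFIIH joins RNA polymerase II at promoters and opens the DNA around the start site. It also unwinds damaged DNA in nucleotide excision repair. Its core holds the helicase-family ATPases XPB (Ercc3) and XPD (Ercc2) and a scaffold of smaller subunits (Gtf2h1 to Gtf2h5), and its kinase module, the CDK-activating kinase, holds Cdk7, its cyclin Ccnh and the assembly factor Mnat1. Triptolide, a diterpenoid epoxide from the vine Tripterygium wilfordii, binds XPB covalently and blocks its ATPase, which lowers transcription initiation in treated cells. The arrays measured transcripts only, and neither the XPB protein nor its activity was assayed here.

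The probes are single 60-base oligonucleotides, placed on the rat build rn4 per the file headers. The Ercc3 probe lies at chr18:24715946-24716005. The Cdk7 probes are shown because the gene's values rest on both, the Ccnh probe because its gene had one of the larger differences, the first Gtf2h1 probe because a second probe of that gene differed in sign, and the Ercc2 probe because its spots were faint. Probes with a stop codon in every reading frame were not printed, among them those of Mnat1 and Gtf2h2 and the second Gtf2h1 probe. The sequences are printed 5′ to 3′ in lower case throughout, since no base within them is singled out.
Cdk7 probe 1: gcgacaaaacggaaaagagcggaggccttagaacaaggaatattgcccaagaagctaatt
Cdk7 probe 2: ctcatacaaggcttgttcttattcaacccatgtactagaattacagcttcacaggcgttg
Ccnh: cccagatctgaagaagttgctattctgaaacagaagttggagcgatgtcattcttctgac
Gtf2h1 probe 1: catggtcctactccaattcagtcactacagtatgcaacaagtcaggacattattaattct
Ercc2: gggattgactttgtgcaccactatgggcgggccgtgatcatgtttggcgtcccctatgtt

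Cdk7 probe 1 is listed at chr2:31501123-31502078 and Cdk7 probe 2 at chr2:31502184-31503858, both on the minus strand. The 60 bases of each are thus spread over 956 and 1675 bases of genome, as for a probe across an exon junction. The Ercc2 probe (chr1:78910852-78911086, 235 bases) and the Gtf2h4 probe (chr20:3225703-3225915, 213 bases) also span more genome than their own length. Ccnh (chr2:14199184-14199243) and Gtf2h1 probe 1 (chr1:97372827-97372886) lie within uninterrupted stretches. Gtf2h1 probe 2 lies further along the same transcript at chr1:97379800-97379859, and its GC content is 28.3% against 38.3% for probe 1. Gtf2h2 (chr2:31284808-31284867) and Cdk7 are neighbours, their probes 216 kb apart. The probes of Gtf2h5 and Mnat1 are at chr1:40864146-40864205 and chr6:95698459-95698518. Whether each lies in coding sequence or in a UTR was not analysed here.

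Between 59.6% and 65.1% of the 43379 non-control spots per array were well above background, the 75th percentile of spot intensity ran from 270.1 to 447.9, and no spot was saturated. Levels below are log2 of the spot intensity minus the log2 of that array's 75th percentile, so 0 is the 75th percentile of the array. A change common to most transcripts would not appear on this scale. Arthritis 1 to 3 and triptolide 1 shared a slide, and triptolide 2 and 3 shared another. The lining and fibroblast genes Prg4, Pdpn and Thy1 were well above background on all 6 arrays. The probes of Cdh11, also checked, were so on all 6, except for a probe that was so on 5. Tissue makeup differed between arrays: 14 tested skeletal muscle markers of 16 averaged 8.26 above their own mean in arthritis 2, -3.95 and -4.11 in arthritis 1 and 3, and from -3.20 to 1.80 with triptolide. The 9 tested peripheral nerve markers of 10 averaged 2.41 in triptolide 2, -0.96 and -1.14 in triptolide 1 and 3, and from -0.48 to 0.15 in arthritis. All 12 T and NK cell markers were tested, and averaged -0.73 in arthritis 2, -0.90 in triptolide 2 and 0.28 to 0.58 on the other arrays. Of 8 B and plasma cell markers none was tested, and Ms4a1 and Cd79a were not well above background on any array. In bulk tissue, fewer cells of a type and less RNA per cell cannot be told apart.

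None of the TFIIH genes differed between triptolide and arthritis beyond the spread between arrays. By limma, 0 of the 11 member probes passed an adjusted p under 0.05, where 0 of all 25777 tested probes (0%) did. At an unadjusted p under 0.05, 0 of 11 passed, against 3.24% of all tested probes. Groups did not overlap for 0 of 11, against 8.64% of all tested probes. The adjusted p of the members ran from 0.994 to 0.996, with 6 probes higher and 5 lower. The median difference over the 9 genes, with the brighter probe for each, was 0.023 on the log2 scale, beside 0.023 over all tested probes. Its sign was not stable: it was -0.032 without arthritis 2, -0.034 without arthritis 3, -0.051 without triptolide 1 and 0.071 without triptolide 2. The 95% intervals of this fit, taken probe by probe, reach down to 0.576-fold and up to 1.53-fold over the 11 probes. Slide is not part of the fit. Ercc2 was at 0.31 with slide as a block, and Cdk7 probe 1 was at 0.39 with normexp background correction. The limits thus hold for this fit only. In the plot of differences with their intervals, every interval spans 0.

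**Figure D1:**
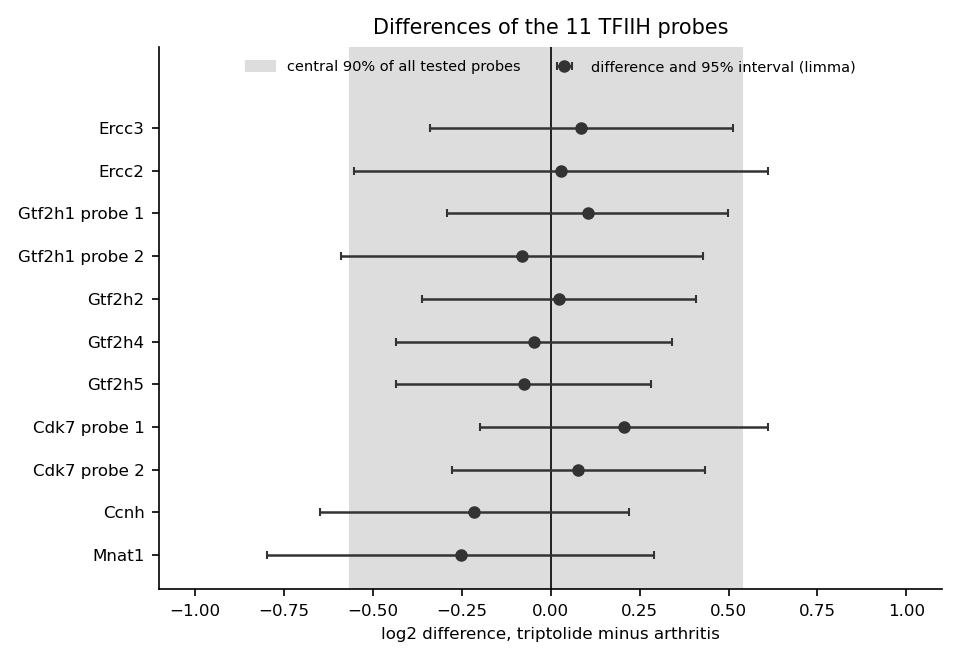
Log2 difference of each of the 11 TFIIH probes, triptolide minus arthritis (x axis), with points for limma's estimate and bars for its 95% interval; grey marks the central 90% of all 25777 tested probes, from -0.56 to 0.54. All 11 points lie between -0.25 and 0.21, inside the grey band, and all intervals include 0.

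Ercc3 encodes XPB, the ATPase that triptolide binds, and its probe gave spot intensities of 4046 to 8479. Its log2 levels were 4.08, 3.79 and 4.20 in arthritis 1 to 3 and 4.14, 3.95 and 4.24 in triptolide 1 to 3. Within each group replicate 2 was the lowest, and the groups overlapped. The arthritis mean was 4.02 ± 0.21 (SD, n = 3) and the triptolide mean 4.11 ± 0.15 (SD, n = 3), a log2 difference of 0.086 (SE 0.18). This is 1.06-fold with a 95% interval of 0.790 to 1.43. Without arthritis 2, the difference had the opposite sign, at -0.032.

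Ercc2 encodes XPD, the second ATPase, which unwinds DNA in excision repair. Its probe gave spot intensities of 34.7 to 49.7. Its log2 levels were -2.75, -2.91 and -3.21 in arthritis 1 to 3 and -2.65, -2.78 and -3.36 in triptolide 1 to 3. Both the highest and the lowest value were in the triptolide group, and all arthritis values lay between them. The difference was 0.029 (SE 0.24), with a 95% interval of -0.55 to 0.61, and the sign turned under quantile normalization (-0.0057).

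Gtf2h1 encodes a scaffold subunit that other factors bind, and it was read by 2 probes. Probe 1 stood at 0.14, -0.075 and 0.13 in arthritis 1 to 3 and at 0.20, -0.022 and 0.33 in triptolide 1 to 3. Probe 2 stood at -0.81, -1.07 and -0.92, then at -0.79, -1.40 and -0.86. On both probes replicate 2 was the lowest of its group, and the low value of triptolide 2 was the more marked on probe 2. The differences were 0.10 (SE 0.16) for probe 1 and -0.080 (SE 0.21) for probe 2, and without triptolide 2 that of probe 2 was 0.11.

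Gtf2h2, a core subunit next to XPD, had log2 levels of 1.22, 1.02 and 1.34 in arthritis and 1.32, 1.09 and 1.24 with triptolide. Again replicate 2 was the lowest in each group, and the difference was 0.023 (SE 0.16), below 0 with normexp background correction (-0.069). Gtf2h4, the subunit that anchors XPB in the complex, stood at -0.52, -0.55 and -0.50 in arthritis, the tightest trio of any member (SD 0.024, n = 3). With triptolide it stood at -0.49, -0.80 and -0.42, so the arthritis values lay within the triptolide range, whose low end was triptolide 2. The difference was -0.046 (SE 0.16), and without triptolide 2 it was 0.071.

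Gtf2h5, the smallest subunit, which stabilises the complex, had log2 levels of 2.51, 2.71 and 2.58 in arthritis and 2.47, 2.44 and 2.66 with triptolide. The highest value was arthritis 2 and the lowest triptolide 2, and the groups overlapped. The difference was -0.076 (SE 0.15), a fold of 0.948 with a 95% interval of 0.740 to 1.22, and it was 0.011 with normexp background correction. Of the 6 core genes measured, 4 had a higher and 2 a lower mean with triptolide, with a median difference of 0.026.

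The kinase module held the 3 larger gene differences, in opposite directions. Cdk7, the kinase, was read by 2 probes. Probe 1 stood at 2.76, 2.40 and 2.65 in arthritis 1 to 3 and at 2.68, 2.95 and 2.78 in triptolide 1 to 3. Its 2 highest values were both in triptolide, its lowest was arthritis 2, and the groups overlapped because arthritis 1 exceeded triptolide 1. The means were 2.60 ± 0.18 (SD, n = 3) and 2.80 ± 0.14 (SD, n = 3), a difference of 0.21 (SE 0.17) or 1.15-fold, with a 95% interval of 0.872 to 1.53. Probe 2 stood at 2.07, 1.79 and 1.96 and at 2.03, 1.96 and 2.06, with a difference of 0.078 (SE 0.15). Both probes thus were lowest in arthritis 2, and their values correlated over the 6 arrays with r = 0.69, given as a description. Without arthritis 2 the differences were 0.10 for probe 1 and 0.0018 for probe 2.

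Ccnh, the cyclin that activates Cdk7, had log2 levels of 1.87, 1.94 and 2.08 in arthritis and 1.94, 1.47 and 1.84 with triptolide. Triptolide 2 was the lowest, and triptolide 1 lay inside the arthritis range. The means were 1.96 ± 0.11 (SD, n = 3) and 1.75 ± 0.25 (SD, n = 3), a difference of -0.21 (SE 0.18) or 0.862-fold, with a 95% interval of 0.638 to 1.16. Without triptolide 2 the difference was -0.075.

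Mnat1, the factor that holds kinase and cyclin together, had log2 levels of 2.06, 2.63 and 2.10 in arthritis and 2.21, 1.74 and 2.08 with triptolide. The highest and lowest of its 6 values were arthritis 2 and triptolide 2, and the other 4 arrays lay between 2.06 and 2.21. Its means were 2.26 ± 0.32 (SD, n = 3) and 2.01 ± 0.24 (SD, n = 3), a difference of -0.25 (SE 0.22), the largest of any member in size, and 0.839-fold with a 95% interval of 0.576 to 1.22. Without both of these arrays the difference was 0.064.

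**Figure D2:**
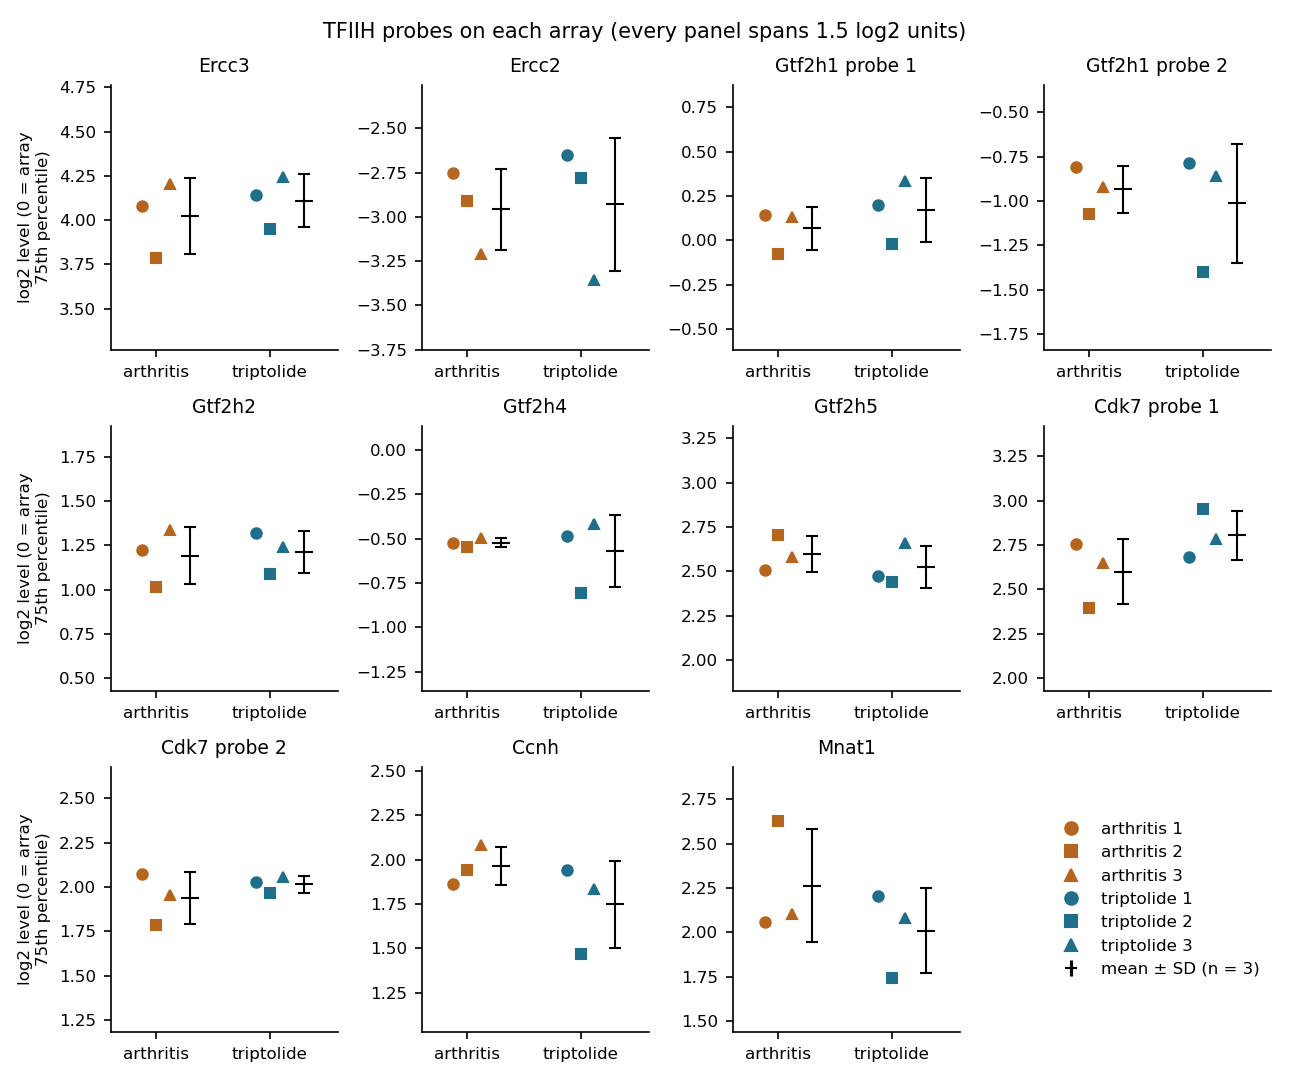
Log2 level of each TFIIH probe (y axis, relative to the array's 75th percentile) in the 3 arthritis and 3 triptolide arrays, with marker shape for the replicate number and black bars for mean ± SD; every panel spans the same 1.5 log2 units. In each of the 11 panels the groups overlap, and the squares, which are arthritis 2 and triptolide 2, take the lowest place in 10 of 11.

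The extremes of the members gathered on a pair of arrays. Arthritis 2 held the lowest value for 5 probes (Ercc3, Gtf2h1 probe 1, Gtf2h2 and both Cdk7 probes), triptolide 2 for another 5 (Gtf2h1 probe 2, Gtf2h4, Gtf2h5, Ccnh and Mnat1), and triptolide 3 for Ercc2. The mean deviation of the 9 genes from their own means was -0.12 in triptolide 2, where 2 genes lay above their own mean, and from -0.023 to 0.074 on the other 5 arrays. Arthritis 2 and triptolide 2 are also the arrays at the top of the muscle and the nerve markers, respectively, and at the bottom of the T and NK cell markers. With the mean of the muscle markers added to the fit, no member probe passed an unadjusted p under 0.05 and the largest difference in size was 0.25. That mean differed by only -0.14 between triptolide and arthritis, so adding it could shift the differences little. With arthritis 2 and triptolide 2 left out, again none passed, and the largest was 0.13. The part of the nerve and immune cell markers in these values was not tested, and the fit does not settle that of muscle.

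**Figure D3:**
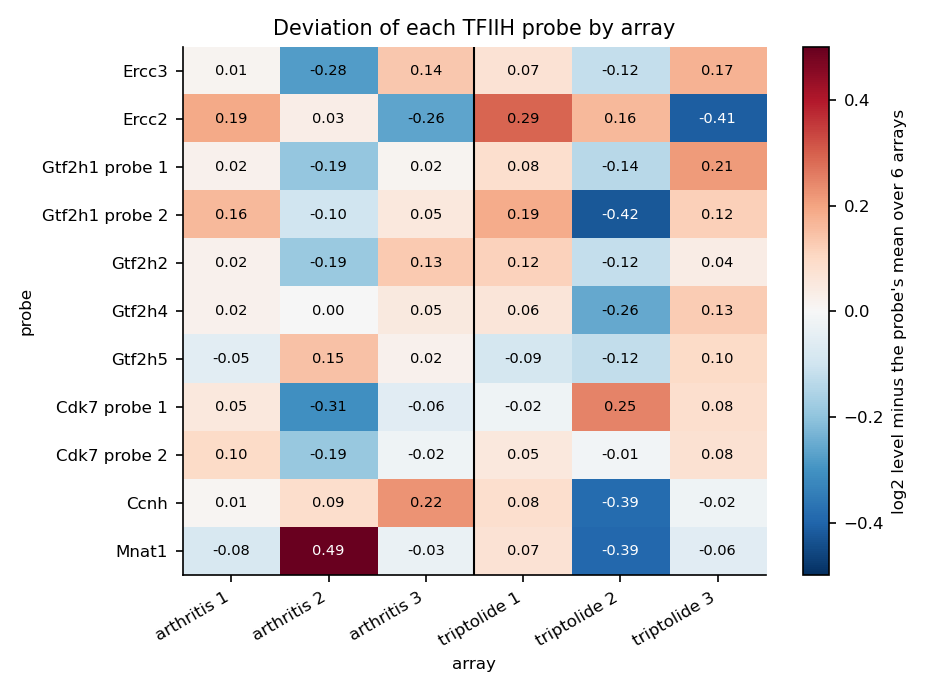
Log2 level of each TFIIH probe minus its own mean over the 6 arrays (colour and printed value), with arrays on the x axis and probes on the y axis; the line separates arthritis from triptolide. Mnat1 is at 0.49 in arthritis 2 and -0.39 in triptolide 2, Ercc2 is at -0.41 in triptolide 3, and no probe is above its mean throughout one group and below it throughout the other.

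The subunits did not share 1 profile. Over the 36 pairs of the 9 genes, Pearson's r across the 6 arrays had a median of 0.12 and ran from -0.97 to 0.91, with 20 pairs above 0. All pairs share the same 6 arrays and their scaling, so these values are descriptions. Ercc3 ran with Gtf2h1 (r = 0.91) and Gtf2h2 (r = 0.91), but over the 4 arrays without arthritis 2 and triptolide 2 these were 0.64 and 0.23. The most opposed pair was Cdk7 and Mnat1, 2 parts of the same kinase module. Within an array, Cdk7 probe 1 minus Mnat1 was -0.23 in arthritis 2 and 1.21 in triptolide 2, and between 0.47 and 0.71 on the other 4 arrays. Probe 2 of Cdk7 gave r = -0.64 with Mnat1 where probe 1 gave -0.97, and over the 4 remaining arrays probe 1 gave -0.57. The genes whose profile was most like that of Ercc3 were Fbxw4, Fkbp15 and Casp6, each with r of 0.997 or 0.998 over 6 arrays. Over the same 6 arrays, 1199 of 15702 compared probes had r above 0.9 with Ercc3, and the cause was not tested.

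The spread of the members between replicates had a lower median than that of all tested probes. The larger of the 2 group SDs had a median of 0.21 over the member probes and 0.35 over all tested probes, and the SE of the difference a median of 0.17 and 0.23. The median size of the difference was 0.080 over the members and 0.17 over all tested probes. By size of difference, Ercc3 stood at the 28.3rd percentile of tested probes, and Mnat1, the largest, at the 66.2nd. The tested probes were not matched to the members for signal level. Their median log2 level ran from -0.95 to -0.89 per array, below the levels of Ercc3, Cdk7, Ccnh and Mnat1 and above that of Ercc2. The part of signal level in the smaller spread was not tested.

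Related gene lists held no member past the adjusted threshold, which 0 of all 25777 tested probes passed, so this says nothing particular to the lists. Of 20 other general transcription factors, 17 were tested: 8 had higher and 9 lower means with triptolide, with a median of -0.012. By limma, 0 passed an unadjusted p under 0.05, against 3.24% of all tested probes. Gtf2a1, a TFIIA subunit gene, stood at -2.39, -2.73 and -2.54 in arthritis and -2.16, -2.33 and -2.28 with triptolide, without overlap, a difference of 0.30 (SE 0.16). Gtf2a2, another TFIIA subunit gene, differed by -0.28 (SE 0.21), and Taf6, of TFIID, by -0.20 (SE 0.16). In this list, groups did not overlap for 2 genes with triptolide higher and 1 with it lower, where 4.77% and 3.87% of all tested probes did so. The list's median was -0.073 without arthritis 2 and above 0 without arthritis 1 (0.062), arthritis 3 (0.0033) or triptolide 2 (0.028).

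Of 18 nucleotide excision repair partners, all were tested: 8 were higher and 10 lower, with a median of -0.048. By limma, 0 passed an unadjusted p under 0.05, against 3.24% of all tested probes. Cetn2, a subunit of the XPC damage sensor, stood at -0.73, -0.86 and -0.70 in arthritis and -0.60, -0.44 and -0.52 with triptolide, without overlap, a difference of 0.25 (SE 0.14). It was the 1 gene of the list with triptolide higher without overlap, and Ercc1, which cuts the damaged strand with its partner Ercc4, was the 1 with triptolide lower, at -0.092 (SE 0.13). The shares of all tested probes were 4.77% and 3.87%. Ddb2, a sensor of ultraviolet damage, differed by -0.21 (SE 0.17). The list's median was 0.018 without arthritis 3.

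Of 24 genes of elongation control and the mediator kinase, which regulate the same polymerase, 22 were tested. With triptolide 18 were higher and 4 lower, with a median of 0.086, where 53.9% of all tested probes were higher. None passed an unadjusted p under 0.05 and none had groups apart, against 3.24% and 8.64% of all tested probes. The 3 smallest p-values belonged to Cdk12 (0.22, SE 0.19), Ell2 (0.19, SE 0.17) and Tcea1 (0.17, SE 0.15). Without arthritis 2 and triptolide 2 the median was -0.022.

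The 15 short-lived transcripts, a list of messages such as Myc and Mcl1 that decay quickly once transcription is blocked, were all tested. With triptolide 10 were higher and 5 lower, with a median of 0.16. At an unadjusted p under 0.05, 1 was higher and 0 lower, against 2.01% and 1.23% of all tested probes. That gene, Nfkbia, the NF-kB inhibitor, stood at 2.84, 2.66 and 3.30 in arthritis and 3.76, 3.43 and 3.52 with triptolide, a difference of 0.63 (SE 0.21, limma adjusted p = 0.994). Ccnd1 and Ier3 differed by 0.52 (SE 0.23) and 0.55 (SE 0.24). Ier3 stood at 1.38, 1.26 and 1.40 in arthritis and at 2.40, 1.66 and 1.63 with triptolide, with triptolide 1 well above the rest. The largest differences in the lower direction were those of the immediate early genes Jun, at -0.33 (SE 0.24), and Dusp1, at -0.33 (SE 0.25). Jun stood at 3.75, 4.45 and 3.67 in arthritis and at 3.71, 3.54 and 3.65 with triptolide, with arthritis 2 well above the rest. Groups did not overlap for 2 genes with triptolide higher, Nfkbia and Ier3, and for 0 with it lower, against 4.77% and 3.87% of all tested probes. The list's median was -0.011 without arthritis 2, 0.34 without triptolide 2 and 0.47 with slide as a block.

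**Figure D4:**
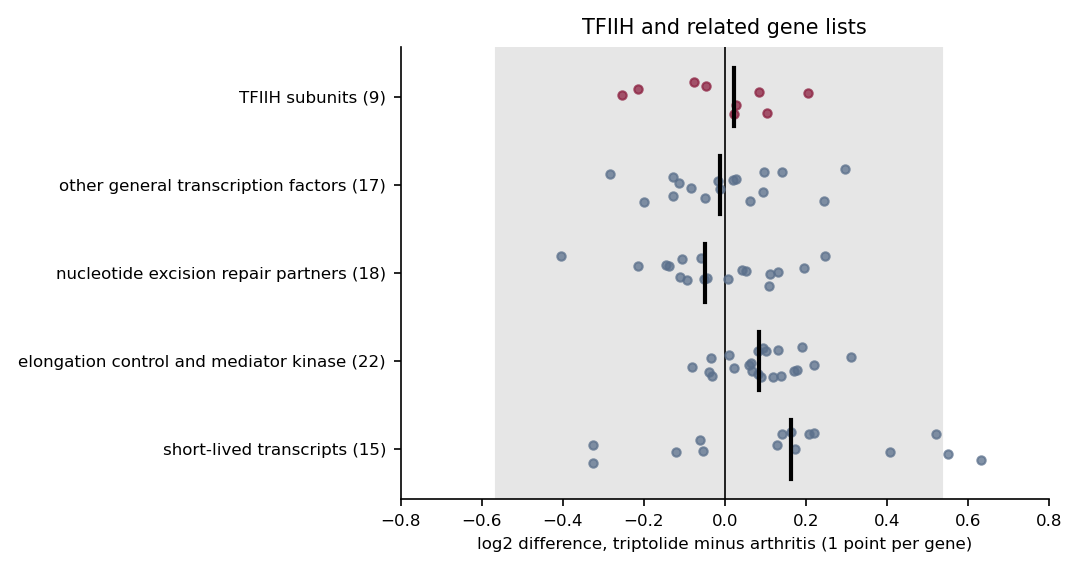
Log2 difference, triptolide minus arthritis (x axis), with a point for each tested gene of the TFIIH subunits and of the 4 related lists, the number of genes in brackets, and a black bar for the list's median; grey is the central 90% of all tested probes. The medians run from -0.048 for the repair partners to 0.16 for the short-lived transcripts, and the TFIIH genes lie between -0.25 and 0.21.

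The promoters of all 10 genes, Gtf2h3 included, matched the RefSeq table of build GRCr8 (300 bases around the start). They held 11 to 33 CpG dinucleotides, with a median of 21, where the median of all 33469 promoters of that length was 7. Their GC content had a median of 56.3% against 51.7%. The TATA box letters TATAAA, searched on both strands, were in 0 of the 10 and in 14.2% of all promoters. With 10 promoters, 0 cannot be set apart from that share. The promoters compared were not matched to genes expressed in this tissue.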

How the data were processed

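The 6 deposited scanner files, 1 per array, hold spot intensity on a linear scale, background-subtracted and detrended within the array by Agilent Feature Extraction (version 10.7.3.1 per the file headers, 9.1 per the submitters' processing notes) and not normalized between arrays. A deposited value table of the series holds no member probe and was not used. Control and outlier spots were left out, log2 was taken, values were centred on each array's 75th percentile of non-control spots, and repeated spots were averaged. Probes well above background on at least 3 of 6 arrays were tested with limma 3.58.1 in R 4.3.3 (lmFit, eBayes, all 6 arrays, no covariate, Benjamini-Hochberg over all tested probes). The number of arrays limits the precision. An exact permutation test of 3 against 3 cannot go below 0.1, and gave the members 0.2 to 1.

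Related genes were named through RefSeq's table (18028 probes by accession, 3169 by symbol, 407 by synonym, 19408 unmatched), with the brightest tested probe for each. The rule named all members, the 3 genes with the smallest p in each related list, and the 3 most like Ercc3; Ercc1, Jun and Dusp1 were chosen after their values were seen. Some results that the rule would name are not reported here. Members and lists were chosen with earlier results of these data known. No label pairs the arrays by replicate number. The deviations of same-numbered arrays correlated at -0.16, -0.13 and 8.3e-04, which cannot show whether they were handled in pairs, with so few arrays per group. Scripts were tested on simulated data. Alternatives were other background corrections, scalings, filters, blocks, weights, a muscle covariate, and arrays left out.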

Additional observations from a re-analysis of the deposited data

How the results depend on the processing

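Under 18 alternatives, 0 of 198 member values passed an unadjusted or adjusted p under 0.05, 173 kept their direction and 25 changed it. These are the same 11 probes refitted on the same arrays, so they are not 198 separate results. Of all tested probes, 619 to 2880 passed an unadjusted p under 0.05 by limma, depending on the alternative. The largest difference in size was 0.39, for Cdk7 probe 1 with normexp (limma unadjusted p = 0.060), where the main fit gave 0.21. Gtf2h1 probe 1, Ccnh and both Cdk7 probes kept their sign under all 18 alternatives. The median over the TFIIH genes ran from -0.051 to 0.071 with 1 array left out and was -0.0057 with quantile normalization. Its sign thus changed, by shifts within the SD between replicates (0.076). Adding slide to the fit raised this median to 0.080, and using only the arrays of slide 1 gave 0.080 too. Ercc2 then had the largest member difference, at 0.31. Triptolide 1 is the only triptolide array that shares a slide with arthritis arrays, so these values rest on it. The sign changes were as follows, and the cause was not tested. With normexp Gtf2h2 was at -0.069 and Gtf2h5 at 0.011, and with quantile normalization Ercc2 was at -0.0057. Blocked by slide, and equally on slide 1 alone, Gtf2h1 probe 2 was at 0.15 and Gtf2h4 at 0.037. With array weights Ercc2 was at -0.15, Gtf2h2 at -0.0063, Gtf2h4 at 0.046 and Gtf2h5 at 0.039. Without arthritis 2 and triptolide 2 together, an alternative chosen after seeing the data, Ercc2 was at -0.022, Gtf2h1 probe 2 at 0.043, Gtf2h2 at -1.8e-04, Gtf2h4 at 0.058, Gtf2h5 at 0.021 and Mnat1 at 0.064. With 1 array left out, Ercc3 ranged from -0.032 to 0.18, Ercc2 from -0.11 to 0.24, Gtf2h1 probe 2 from -0.19 to 0.11, Gtf2h2 from -0.065 to 0.095 and Gtf2h4 from -0.12 to 0.071.

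The count of all tested probes at an unadjusted p under 0.05 was 835. It was 1758 with no filter, where more probes are tested, 1297 within slide 1, 2647 with array weights, 1676 with the muscle covariate, 2880 without arthritis 2 and triptolide 2, and 619 to 1657 with 1 array left out, the highest without triptolide 2. With the replicate number as a block it was 1066, the median of the TFIIH genes was 0.023 and 0 member probes passed. Only triptolide 1 stands for triptolide in those slide comparisons. Scaling alternatives shifted the median of all tested probes by at most 0.059 in size, with normexp (-0.059). The faint Ercc2 spots, at intensities of 34.7 to 49.7, limit what its probe can show.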
